A study of Homo sapiens with 16 samples.

Results

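The region described here is a stretch of 690 kb on the short arm of human chromosome 9 (hg19 chr9:21440000-22130000) that holds MIR31HG, MTAP, CDKN2A and CDKN2B. Its members were all regions of the 7 deposited tables that overlap this stretch, 760 of 1255311 regions in all. The stretch was chosen by its lower M in DKO, the log2 ratio of read density between the lines, in these same tables, so the overall direction of the differences below is a description of how it was chosen. HCT116 is a human colorectal carcinoma cell line, and DKO is its derivative with the DNA methyltransferase genes DNMT1 and DNMT3B disrupted, as is known of the line that carries this name. The labels give no further genotype, clone or treatment for either line. Each line gave 1 chromatin immunoprecipitation library for each of 7 targets, 14 libraries in all, and 2 input libraries were not used here.

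The libraries addressed CTCF, RAD21 and SMC1 (subunits of cohesin), the active-chromatin mark H3K27Ac, and RNA polymerase II in 3 forms. Pol2Ser5 is the phosphorylated form found mostly at promoters, Pol2Ser2 the form found along transcribed gene bodies, and TotalRNAPol2 total polymerase according to the sample titles. The antibody label of the TotalRNAPol2 samples names Pol2Ser5 instead, so these alternatives cannot be told apart from the labels. With 1 library per line and target, no difference between the lines has a replicate check, and no test across samples was possible. The intervals below cover counting error only.

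MIR31HG is a long noncoding RNA gene that hosts the microRNA miR-31, and its RNA has been described as a repressor of p16INK4a in senescence. MTAP encodes an enzyme of methionine salvage. CDKN2A encodes, from separate starts, p16INK4a, an inhibitor of the kinases CDK4 and CDK6, and ARF, which stabilises p53. CDKN2B encodes the related inhibitor p15INK4b, and the antisense gene CDKN2B-AS1 starts close to the ARF start of CDKN2A. Cohesin is often held at CTCF sites, where both help to set the bounds of chromatin loops. CpG-rich promoters in this part of the genome are well known to gain DNA methylation in tumour cells.

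The sequences at 3 starts and the microRNA are shown because the regions over them carry the main contrast: the start of MIR31HG and that of p16INK4a had lower H3K27Ac in DKO, while the strongest region at the start of MTAP was within 2-fold. They come from RefSeq on GRCh38.p14, span 250 bases before to 50 after the start and are written 5′ to 3′ with each CG in capitals. All 4 genes matched an entry of the RefSeq promoter table.
MIR31HG, minus strand, chr9:21559749-21560048: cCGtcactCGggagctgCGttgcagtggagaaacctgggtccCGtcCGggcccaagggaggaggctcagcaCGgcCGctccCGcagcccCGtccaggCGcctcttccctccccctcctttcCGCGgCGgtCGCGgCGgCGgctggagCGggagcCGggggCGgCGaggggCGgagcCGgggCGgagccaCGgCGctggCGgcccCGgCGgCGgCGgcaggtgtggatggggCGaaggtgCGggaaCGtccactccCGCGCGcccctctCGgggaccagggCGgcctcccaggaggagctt
p16INK4a start of CDKN2A, minus strand, chr9:21974808-21975107: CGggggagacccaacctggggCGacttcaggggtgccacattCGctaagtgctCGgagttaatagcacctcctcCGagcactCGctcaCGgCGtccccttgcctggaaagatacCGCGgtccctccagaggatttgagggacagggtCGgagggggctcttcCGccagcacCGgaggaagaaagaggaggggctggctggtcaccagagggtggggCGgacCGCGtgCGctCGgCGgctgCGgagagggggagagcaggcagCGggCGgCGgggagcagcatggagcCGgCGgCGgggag
MTAP, plus strand, chr9:21802386-21802685: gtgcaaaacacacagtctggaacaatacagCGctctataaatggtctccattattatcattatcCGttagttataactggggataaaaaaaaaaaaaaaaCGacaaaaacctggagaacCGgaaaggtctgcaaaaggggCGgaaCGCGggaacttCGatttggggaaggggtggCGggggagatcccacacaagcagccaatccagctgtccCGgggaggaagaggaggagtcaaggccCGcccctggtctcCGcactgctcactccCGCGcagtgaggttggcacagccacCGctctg
hsa-miR-31-5p, minus strand, chr9:21512158-21512178, with the seed at bases 2 to 8 in capitals: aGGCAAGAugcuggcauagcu

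The MIR31HG promoter held 39 CG, that of p16INK4a 26 and that of MTAP 15. CG was searched as the letters CG, which read the same on both strands. Of 35116 RefSeq promoters of the same 300 bases, 96% held at least 1 CG and the median was 14. At least as many CG as in MIR31HG were found in 8.71% of promoters, as in p16INK4a in 30.1%, and as in MTAP in 48.9%. The other starts held 36 (CDKN2B-AS1), 28 (ARF) and 25 (CDKN2B). H3K27Ac was not lower over these (M 0.29 over the ARF end and 0.21 at CDKN2B), so CG-rich starts were found with and without lower H3K27Ac. These are counts of letters and say nothing of the methylation in either line, which was not measured here.

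Along the stretch, the marks of transcription were lower in DKO over MIR31HG and the intergenic sequence up to MTAP, while strong CTCF sites were present in both lines. M is the authors' log2 ratio of the normalized read density in DKO over HCT116, and a region is called lower or higher in DKO at a difference of at least 2-fold. For H3K27Ac, 48 of 83 regions were lower (10.4% of all regions of the table) and 0 higher (11%). For Pol2Ser5, 117 of 154 were lower (21%) and 0 higher (14.9%). For Pol2Ser2, 104 of 184 were lower (10.9%) and 3 higher (18.6%). For TotalRNAPol2, 91 of 148 were lower (10.2%) and 0 higher (20.7%). Since the stretch was chosen for these values, nothing is read from the excess over the background, and a lower signal per cell cannot be told apart from fewer cells with the signal.

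The architectural proteins differed less. For CTCF, 11 of 44 regions were lower (6.33% of all regions) and 1 higher (20.1%). For RAD21, 20 of 79 were lower (8.7%) and 6 higher (13.7%). For SMC1, 17 of 68 were lower (4.67%) and 3 higher (9.36%). Median M over the stretch was -0.32 for CTCF, -0.39 for RAD21 and -0.12 for SMC1, against -1.31 for H3K27Ac, -2.44 for Pol2Ser5, -1.24 for Pol2Ser2 and -1.27 for TotalRNAPol2. Over all regions of the tables the medians were 0.26, 0.14, 0.16, -0.05, 0.00, 0.17 and 0.27 in the same order.

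Most lower regions were called in HCT116 only, 41 of 48 for H3K27Ac and 109 of 117 for Pol2Ser5, and such regions had more HCT116 signal by the way they were called. Neighbouring regions can also share reads, because each was counted in a fixed window (1 kb for CTCF, RAD21 and SMC1, 2 kb for the other targets). Counting 1 region per window left 28 lower H3K27Ac regions, 57 for Pol2Ser5, 44 for Pol2Ser2 and 45 for TotalRNAPol2. Among regions called in both lines, 6, 7, 17 and 8 were lower in the same order, and for CTCF 0, for RAD21 3 and for SMC1 2.

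**Figure D1:**
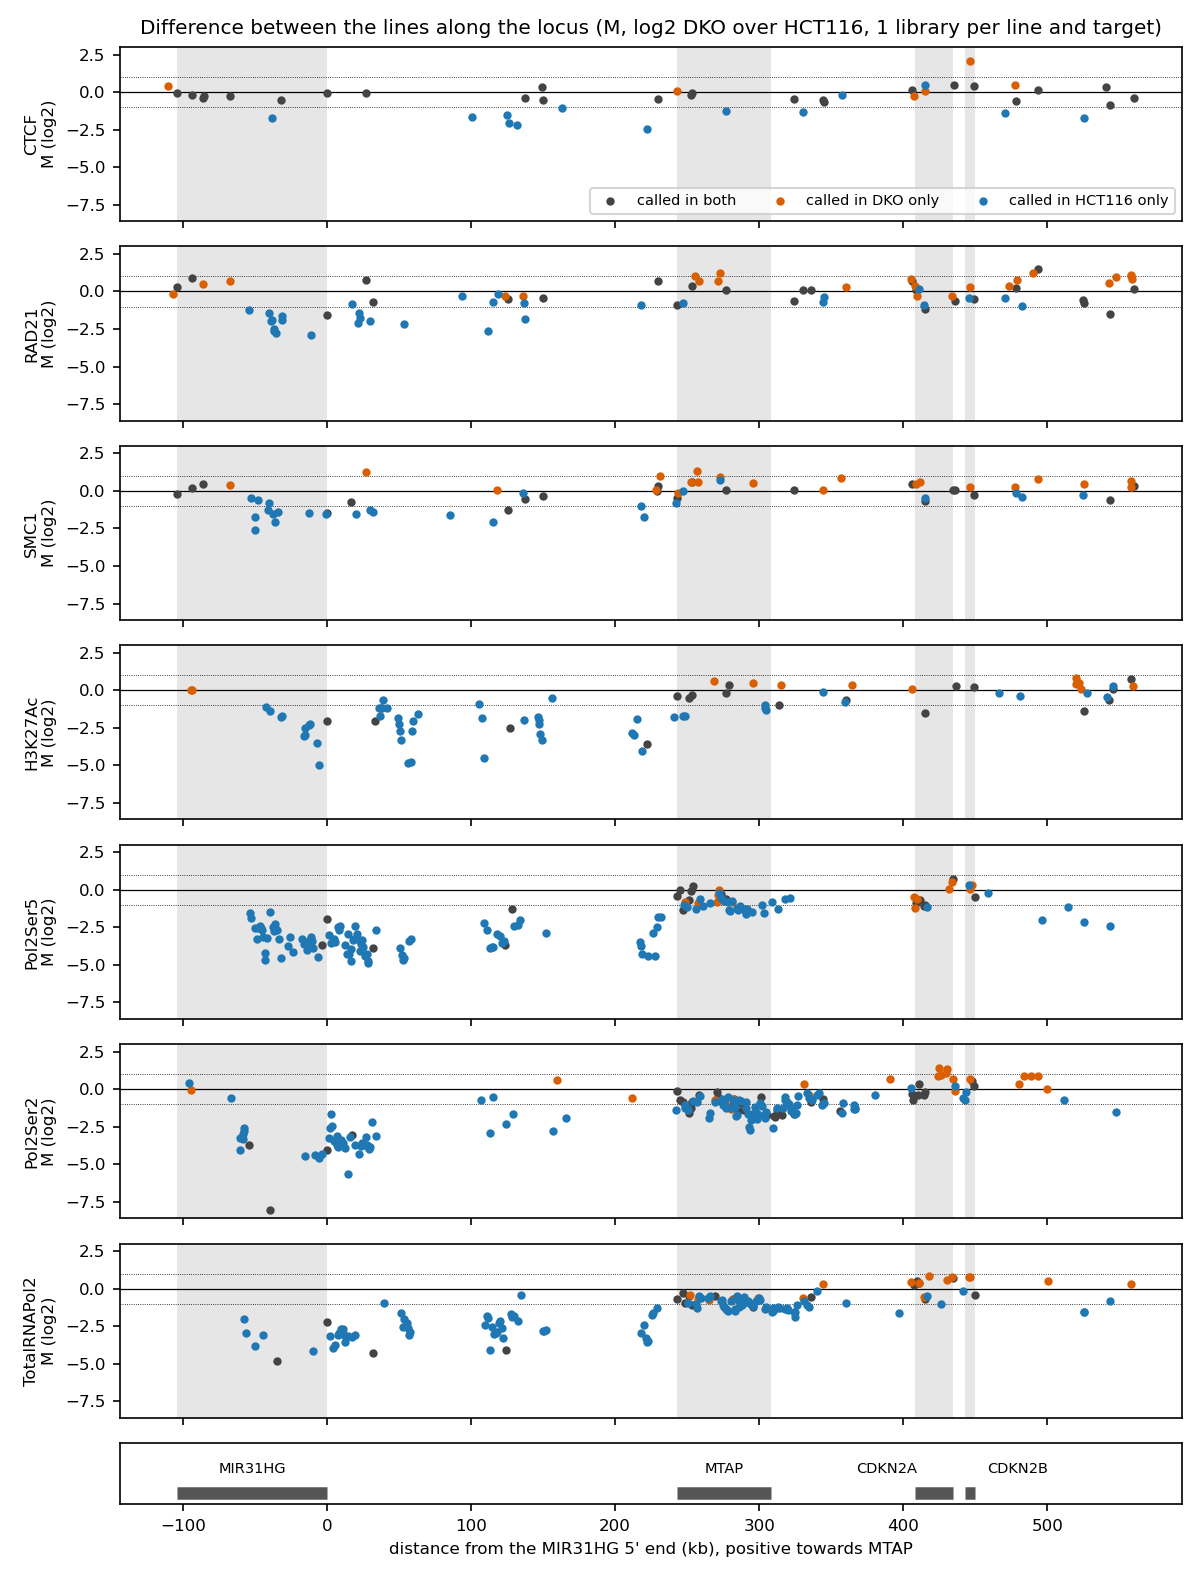
M (log2 DKO over HCT116) of each of the 760 regions, in 1 panel per target, against the distance in kb of its summit from the MIR31HG 5′ end. Grey bands are the 4 genes, dotted lines mark 2-fold, and colours give the line in which a region was called. The polymerase and H3K27Ac points lie far below 0 from within MIR31HG to just before MTAP, and spread on both sides of 0 at CDKN2A and CDKN2B, with 1 H3K27Ac point at M -1.49 in CDKN2A.

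At the MIR31HG start the acetylated region (chr9:21554634-21562388) had 300 reads in DKO against 1270 in HCT116, a 4.03-fold lower density in DKO (M -2.01, 95% interval -2.20 to -1.83). That was the highest HCT116 read number of any H3K27Ac region of the stretch. The Pol2Ser5 region at the start (chr9:21557821-21561070) had 335 reads in DKO against 707 in HCT116 (M -1.94, -2.14 to -1.76). The TotalRNAPol2 region (chr9:21554605-21561194) had 285 and 634 reads (M -2.24, -2.45 to -2.04). For Pol2Ser2 (chr9:21558517-21560980) the reads were 32 and 517, a 16.3-fold lower density (M -4.02, -4.63 to -3.55). So reads remained at the start in DKO for all 4 targets, and Pol2Ser2 had the lowest M of the 4. Read numbers are not compared between targets, since the median DKO region of the Pol2Ser2 table had only 24 reads.

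Cohesin at the same start was lower as well, while CTCF was not. The RAD21 region (chr9:21558586-21560522) had 70 reads in DKO against 177 in HCT116 (M -1.55, -1.99 to -1.16), and the SMC1 region (chr9:21559149-21560293) 50 and 112 (M -1.47, -2.00 to -0.99). The CTCF region (chr9:21559340-21559872) had 69 reads in each line (M -0.09, -0.60 to 0.41).

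**Figure D2:**
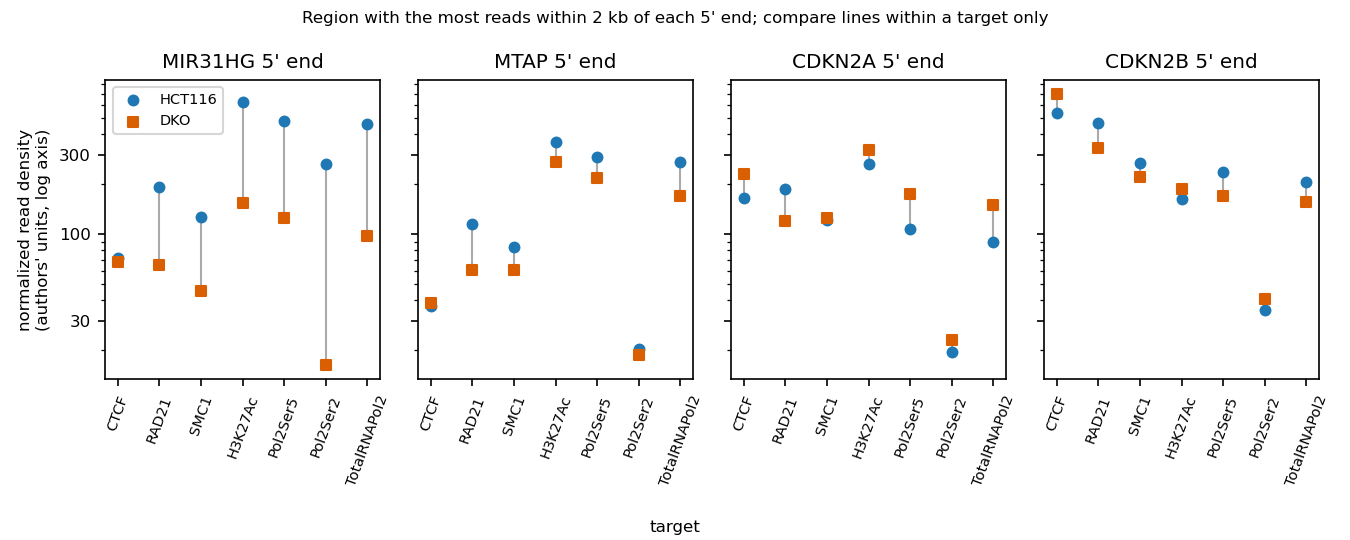
Normalized read density (authors' units, log axis) in HCT116 (circles) and DKO (squares) of the region with the most reads within 2 kb of each gene's 5′ end, by target, 1 library each. The circles stand well above the squares at MIR31HG for all targets but CTCF, and the pairs lie within 2-fold at MTAP, CDKN2A and CDKN2B. Levels can be compared between lines within a target, not between targets.

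Along the body of MIR31HG all 3 polymerase targets had low reads in DKO. The Pol2Ser2 region at chr9:21510851-21536675 had 2 reads in DKO against 995 in HCT116 in the window at its summit, the lowest M of all 236942 regions of that table (M -8.01, -11.64 to -6.73). It was called in both lines and ran from 23.0 to 48.8 kb into the gene. The miR-31 hairpin lies 47.6 kb into MIR31HG in GRCh38. The reads are those of the 2 kb window at the summit only, so they give no value for the whole region or for the hairpin. The TotalRNAPol2 region over nearly the same sequence (chr9:21515732-21536979) had 27 and 551 reads (M -4.83, -5.50 to -4.32). The strongest Pol2Ser5 region of the body (chr9:21526381-21531221) had 10 and 149 reads (M -4.51, -5.73 to -3.72).

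Outside the region over the start, the 32 Pol2Ser5 regions of the body had 2 to 20 reads in DKO (median 11.5) and 21 to 149 in HCT116 (median 60), and all 32 were lower in DKO. The 6 TotalRNAPol2 regions had 11 to 36 reads in DKO and 68 to 551 in HCT116, and all were lower. The 15 Pol2Ser2 regions had 0 to 27 and 15 to 995 reads, and 12 were lower. The 3 others lay 67.0 kb or more into the gene and had 15 to 25 HCT116 reads. None of the Pol2Ser5 and TotalRNAPol2 regions over MIR31HG was called in DKO only. Those called in HCT116 only, 31 of 33 and 5 of 7, had more HCT116 signal by the way they entered the table. The 2 of each target called in both lines were lower as well.

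Summed over non-overlapping windows on MIR31HG, Pol2Ser2 had 103 reads in DKO against 2628 in HCT116 (M -4.07, -4.36 to -3.78). The sums for TotalRNAPol2 were 391 and 2039 reads (M -2.78, -2.94 to -2.62), for Pol2Ser5 524 and 1938 (M -2.62, -2.77 to -2.48) and for H3K27Ac 438 and 1936 (M -1.87, -2.02 to -1.72). These windows include the promoter, so for Pol2Ser5 most of the DKO sum, 335 of 524 reads, came from the start. The summed differences of Pol2Ser2 and H3K27Ac do not overlap in their intervals, but the tables were scaled separately. Each sum was scaled at the mean log2 density of its windows, not region by region as the authors did. Its M can therefore lie outside the range of its regions. For RAD21 over CDKN2B the sum gave M -0.64, while the regions had M from -0.495 to 0.33.

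H3K27Ac in the body was highest near the start. The region at chr9:21548363-21553947 had 15 reads in DKO against 219 in HCT116 (M -3.51, -4.46 to -2.84). Next to it, chr9:21554029-21554391 had 3 and 159 reads, the lowest M of the acetylation regions here (M -4.98, -7.68 to -3.81). At the far end of the gene, about 94 kb from the start, 2 short regions called in DKO only had 37 and 34 reads in DKO against 45 and 41 in HCT116 (M 0.03 and 0.05). Of the 14 H3K27Ac regions that touch MIR31HG, these were the only ones not lower.

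Cohesin in the body was also lower. RAD21 was lower at 11 of 15 regions over MIR31HG (median M -1.66) and SMC1 at 9 of 16 (median M -1.35), all but the start region of each called in HCT116 only. Among regions called in both lines the medians were 0.27 for RAD21 and 0.01 for SMC1, so the negative medians rest on regions called in HCT116 only. These had modest depth, for RAD21 17 to 61 reads in HCT116 and 3 to 23 in DKO. Where RAD21 was strong in both lines within the gene, at chr9:21465161-21466622, it had 177 reads in DKO against 83 in HCT116 (M 0.87, 0.50 to 1.27).

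Upstream of MIR31HG, polymerase and acetylation continued in HCT116 over the sequence between MIR31HG and MTAP, which is 242.8 kb long. In the first 35 kb upstream, 29 of 29 Pol2Ser5 regions, 29 of 29 Pol2Ser2 regions and 13 of 13 TotalRNAPol2 regions were lower in DKO, including those over the start. Pol2Ser2 regions stopped 34.0 kb upstream, and the next one began at chr9:21666373. The Pol2Ser2 region at chr9:21572625-21575435 had 0 reads in DKO against 111 in HCT116, which is 16.6-fold lower with DKO set at the floor of 3 reads. The two-sided 95% interval, which is wider, reaches up to M -3.73. Altogether 4 Pol2Ser2 regions had 0 reads in DKO, and no region of any target had 0 in HCT116.

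A TotalRNAPol2 region near the far end of these upstream polymerase regions (chr9:21579807-21593350) had 38 reads in DKO against 503 in HCT116 (M -4.28, -4.83 to -3.83). The Pol2Ser5 region there (chr9:21588781-21592962) had 32 and 280 reads (M -3.88, -4.49 to -3.38), and the H3K27Ac region (chr9:21562609-21594299) 127 and 577 (M -2.04, -2.33 to -1.77). All 3 targets were thus high in HCT116 and low in DKO about 32 kb upstream of the MIR31HG start.

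Further upstream lay more acetylated regions, and those named here were lower in DKO. The H3K27Ac region at chr9:21610988-21617535 had 12 reads in DKO against 431 in HCT116 (M -4.80, -5.88 to -4.10). Another, chr9:21669361-21693751, had 146 and 906 reads (M -2.51, -2.78 to -2.27), with TotalRNAPol2 at 51 and 562 (M -4.11, -4.58 to -3.72) and Pol2Ser5 at 33 and 248 (M -3.66, -4.26 to -3.16). Nearer to MTAP, chr9:21775780-21780519 had 31 and 595 reads (M -4.02, -4.64 to -3.54) and chr9:21780660-21790779 had 37 and 510 (M -3.55, -4.11 to -3.11). Apart from the region over the MIR31HG start and that over the MTAP start, 33 H3K27Ac regions lay in this stretch, and 30 of them were lower in DKO.

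Among regions that start before MTAP, which sets the far end of these spans, lower H3K27Ac regions spanned 283.7 kb (42 regions), Pol2Ser5 285.6 kb (91), TotalRNAPol2 287.0 kb (55) and Pol2Ser2 303.0 kb (47). The same measure gave 270.5 kb for SMC1 (17) and 261 kb for CTCF (7), and 191.9 kb for RAD21 (18). The lower regions of these targets were scattered and covered only 5.3, 1.8 and 9.5 kb in the same order. Within the first 4 spans the lower regions themselves covered 110.2, 75.5, 103.5 and 79.3 kb. Those 4 reached from 42.8 to 60.8 kb inside MIR31HG to between 229.3 and 242.1 kb upstream of its start. From MTAP on there were 6 further lower regions for H3K27Ac, 26 for Pol2Ser5, 36 for TotalRNAPol2 and 57 for Pol2Ser2.

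**Figure D3:**
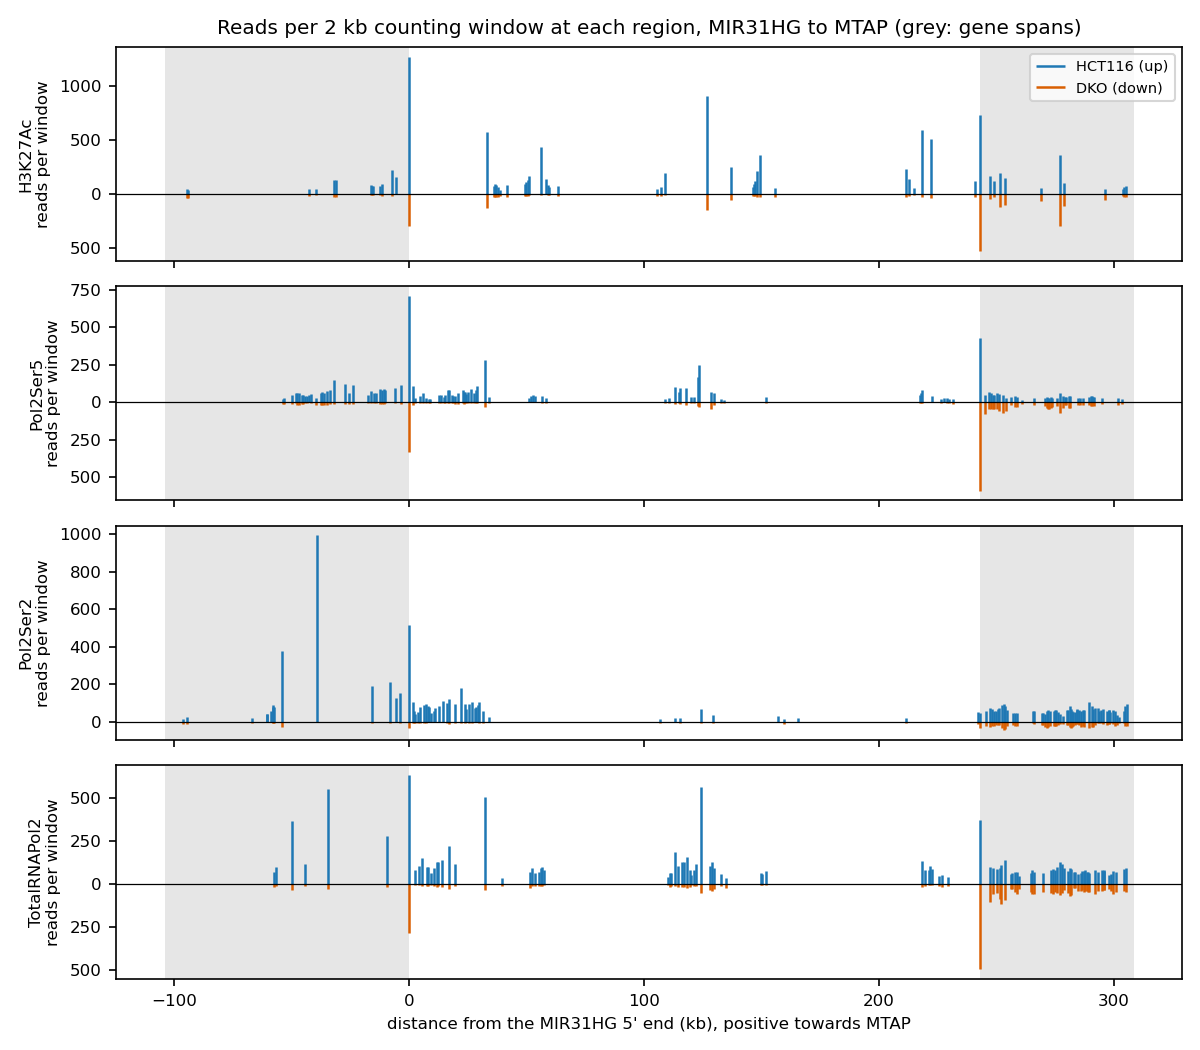
Reads in the 2 kb counting window of each region, HCT116 upward and DKO downward, for H3K27Ac, Pol2Ser5, Pol2Ser2 and TotalRNAPol2, against the distance in kb from the MIR31HG 5′ end. Grey bands are MIR31HG and MTAP. Tall HCT116 lines from MIR31HG to MTAP have short DKO partners, whereas at the MTAP start both lines are tall (590 DKO and 428 HCT116 reads for Pol2Ser5). Reads are not scaled between the lines.

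At the MTAP start the strongest regions of H3K27Ac and polymerase were within 2-fold. H3K27Ac (chr9:21800726-21805659) had 530 reads in DKO against 732 in HCT116 (M -0.40, -0.56 to -0.24). Pol2Ser5 (chr9:21801464-21803964) had 590 and 428 reads (M -0.41, -0.59 to -0.22), and TotalRNAPol2 (chr9:21801386-21804278) 496 and 372 (M -0.68, -0.88 to -0.48). Pol2Ser2 (chr9:21802548-21803214) had 30 and 48 reads (M -0.13, -0.86 to 0.54). Weaker regions within 2 kb of the start were lower in DKO, H3K27Ac at chr9:21800353-21800627 with 28 and 120 reads (M -1.79) and Pol2Ser2 at chr9:21801667-21801846 with 12 and 54 (M -1.37). RAD21 there had 66 and 103 reads (M -0.92, -1.39 to -0.46) and SMC1 between 42 and 74 in HCT116 over 3 regions (M -0.78 to -0.12). Pol2Ser5 and TotalRNAPol2 had more raw reads in DKO with a negative M, since the authors' scaling is part of M. With a constant centring TotalRNAPol2 at this start gave M -0.18, and with the chromosome 9 median removed M -1.07, past 2-fold.

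Along the MTAP body, more than 5 kb from the start, Pol2Ser2 was lower at 33 of 58 regions (median M -1.15), Pol2Ser5 at 16 of 35 (median M -0.89) and TotalRNAPol2 at 17 of 45 (median M -0.83). Pol2Ser2 summed to 414 reads in DKO against 1316 in HCT116 over the gene (M -1.13, -1.29 to -0.97). Cohesin in the body had a median M of 0.69 over 6 RAD21 regions and of 0.59 over 8 SMC1 regions, with 2 and 1 regions higher in DKO. Of the regions that touch MTAP, 4 of 8 for RAD21 and 6 of 11 for SMC1 were called in DKO only. Among those called in both lines the medians over MTAP were 0.09 and 0.08, so no difference in cohesin between MTAP and MIR31HG is read from the medians. Summed reads over MTAP gave M -0.01 for RAD21 (-0.19 to 0.16) and 0.44 for SMC1 (0.25 to 0.62). Over MIR31HG the sums gave M -0.64 (-0.80 to -0.49) and -0.61 (-0.79 to -0.43). These sums also hold the regions called in only 1 line, and their scaling is not that of the single regions. The regions with the most reads over MTAP had M 0.39 for RAD21 and 0.56 for SMC1. Beyond the span used for MTAP, up to CDKN2A, Pol2Ser2 was lower at 23 of 45 regions (median M -1.03) and TotalRNAPol2 at 16 of 24 (median M -1.24). RefSeq gives MTAP a length of 138.5 kb in GRCh38 against 65.5 kb here.

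At CDKN2A the ends of the gene differed in direction for H3K27Ac, Pol2Ser5 and TotalRNAPol2, while RAD21 had a negative M at both. Over the ARF end, where CDKN2B-AS1 also starts, H3K27Ac (chr9:21993099-21997117) had 628 reads in DKO against 542 in HCT116 (M 0.29, 0.12 to 0.45). Pol2Ser5 (chr9:21993818-21997039) had 466 and 160 reads (M 0.70, 0.44 to 0.97), and TotalRNAPol2 (chr9:21993871-21996877) 396 and 135 (M 0.73, 0.45 to 1.03). These intervals lie above 0 but below or around the 2-fold mark. CTCF there (chr9:21993950-21996382) had 226 and 167 reads (M 0.47, 0.18 to 0.77), RAD21 126 and 175 (M -0.65, -0.99 to -0.31) and SMC1 140 and 107 (M 0.05, -0.32 to 0.43).

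RefSeq places the p16INK4a start 34.4 kb below the CDKN2B start within GRCh38, and regions at that distance in hg19 are taken to be those nearest to it. The H3K27Ac region there (chr9:21973722-21976745) had 164 reads in DKO against 509 in HCT116, lower in DKO (M -1.49, -1.76 to -1.24). It was the only H3K27Ac region of CDKN2A that was lower, against 1 that was not. Pol2Ser5 (chr9:21974473-21975622) had 144 and 164 reads (M -0.996, -1.33 to -0.67), and 2 weaker neighbours were lower, chr9:21973915-21974392 with 124 and 148 (M -1.06) and chr9:21975847-21976044 with 58 and 75 (M -1.13). TotalRNAPol2 (chr9:21974420-21975349) had 183 and 179 reads (M -0.67, -0.98 to -0.37) and Pol2Ser2 (chr9:21974588-21975575) 68 and 89 (M -0.19, -0.67 to 0.28). RAD21 (chr9:21974424-21975348) had 46 and 82 reads (M -1.16, -1.72 to -0.63). SMC1 had 43 and 55 reads at chr9:21974869-21975213 (M -0.66, -1.28 to -0.07) and 48 and 53 at chr9:21974637-21974861 (M -0.45, -1.05 to 0.13). CTCF (chr9:21974744-21974908) had 36 and 30 (M 0.07, -0.66 to 0.82).

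Between the 2 starts of CDKN2A, 3 Pol2Ser2 regions were higher in DKO, the only higher ones of that table in the stretch, all called in DKO only and with 19 to 24 HCT116 reads. The highest, chr9:21984708-21984877, had 31 reads in DKO against 19 in HCT116 (M 1.41, 0.57 to 2.35). Over the whole gene Pol2Ser2 summed to 215 and 253 reads (M 0.25, -0.02 to 0.52). That sum was not different from 0 within its counting interval.

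At CDKN2B no region was lower in DKO for any target. H3K27Ac at its start (chr9:22008264-22009801) had 358 reads in DKO against 336 in HCT116 (M 0.21, -0.01 to 0.43), and Pol2Ser2 75 and 74 (M 0.23, -0.25 to 0.71). Pol2Ser5 had 456 and 352 reads (M -0.49, -0.69 to -0.28) and TotalRNAPol2 444 and 288 (M -0.39, -0.60 to -0.17), which became 0.0276 with a constant centring. The start also held the strongest CTCF region of the stretch (chr9:22008270-22009752), with 657 reads in DKO against 569 in HCT116 (M 0.39, 0.23 to 0.56). Inside the gene, a CTCF region called in DKO only (chr9:22006033-22006322) had 54 and 10 reads (M 2.09, 1.22 to 3.34), the only CTCF region of the stretch that was higher in DKO.

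**Figure D4:**
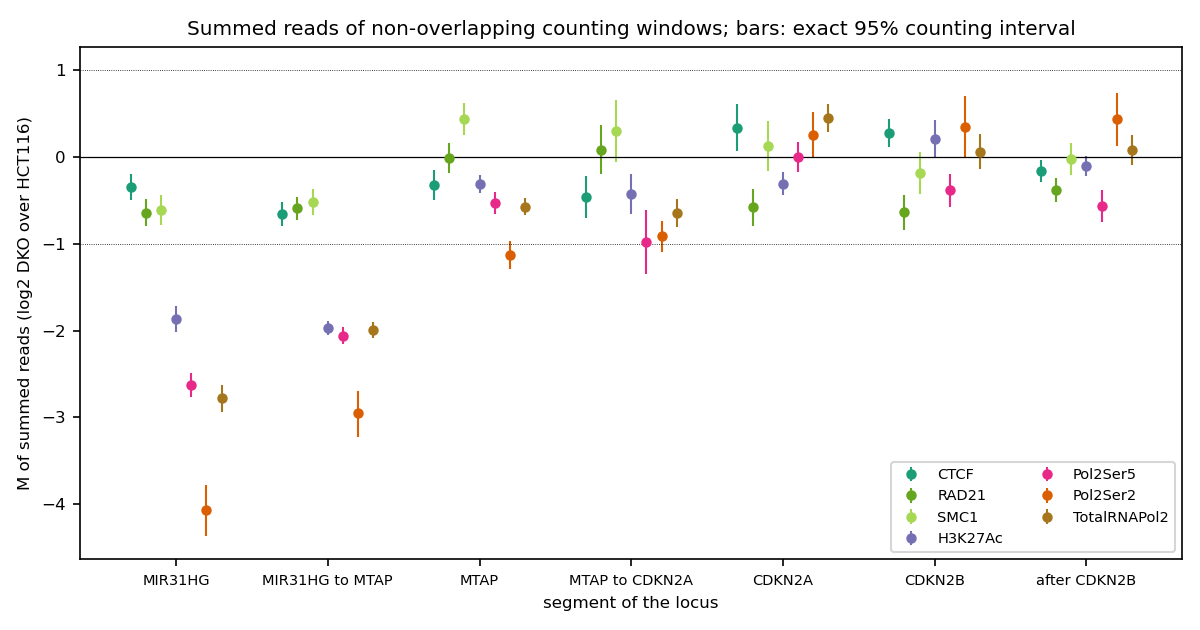
M of the summed reads of non-overlapping windows (log2 DKO over HCT116) by segment of the stretch and target, with exact 95% counting intervals from 1 library per line. Dotted lines mark 2-fold. Each sum was scaled at the mean log2 density of its windows, so it can lie outside the range of M of its regions. H3K27Ac and the polymerase targets lie below -1 over MIR31HG and from MIR31HG to MTAP, Pol2Ser2 also over MTAP, and all targets lie within 2-fold at CDKN2A and CDKN2B.

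Strong CTCF sites were present in both lines across the stretch. The 8 CTCF regions with at least 100 reads in one line had M between -0.55 and 0.47, with 0 past 2-fold. The share past 2-fold among all CTCF regions of that depth was not counted, so nothing particular to the stretch is read from this. Each of the 8 overlapped a RAD21 region (M -0.65 to 0.87) and an SMC1 region (M -0.32 to 0.56). The 36 weaker CTCF regions held all 11 that were lower, with 17 to 52 reads in HCT116. Of the 20 lower RAD21 regions, 14 overlapped no CTCF region, against 45 of all 79 RAD21 regions. An H3K27Ac region lay over 14 of the 20, lower in 13 cases, and over 46 of the 79, lower in 29. A TotalRNAPol2 region lay over 19 of the 20, lower in 17, and over 55 of the 79, lower in 32. Of the 17 lower SMC1 regions, 15 overlapped no CTCF region, against 36 of all 68. An H3K27Ac region lay over 10 of the 17, lower in all 10, and over 42 of the 68, lower in 24. Overlap with H3K27Ac was thus no more frequent among the lower SMC1 regions, but it was among the lower RAD21 regions (14 of 20 against 46 of 79). With TotalRNAPol2 the overlap of lower SMC1 regions was more frequent, at 16 of the 17, lower in all 16. For all SMC1 regions it was 51 of the 68, lower in 32. These overlaps are descriptions over regions that lie near each other.

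One strong CTCF site lay near the far end of the lower transcription marks, before MTAP, and it was picked after its values were seen. It is chr9:21788755-21791070, 11.4 kb before the MTAP start, with 252 CTCF reads in DKO against 376 in HCT116 (M -0.48, -0.72 to -0.25) and RAD21 at 326 and 190 (M 0.70, 0.44 to 0.96). From the MIR31HG start to the site, 57 of 57 Pol2Ser5 regions and 29 of 32 H3K27Ac regions were lower (median M -3.45 and -2.04). From the site to the end of MTAP, 19 of 40 and 5 of 13 were lower (median M -0.91 and -0.48). RAD21 was lower at 8 of 20 regions before the site and 0 of 8 after it, and SMC1 at 8 of 15 and 0 of 12. An acetylated region that was lower in DKO overlapped the site itself (M -3.55). Between the site and the MTAP start, H3K27Ac (chr9:21800353-21800627, M -1.79) and Pol2Ser2 (chr9:21801667-21801846, M -1.37) were still lower. The change in level is therefore not placed at the site, and a role of the site was not tested.

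Outside the stretch the pattern was uneven. In the 1 Mb before it, 1 of 22 H3K27Ac regions, 13 of 28 Pol2Ser5 regions, 14 of 67 Pol2Ser2 regions and 1 of 26 TotalRNAPol2 regions were lower, and 3, 2, 7 and 3 were higher. In the 1 Mb after it, 9 of 20, 11 of 12, 3 of 7 and 8 of 10 were lower and 3, 1, 2 and 2 higher, so lower signal was not limited to the stretch. The members nearest its edges inside had M from -2.04 to 0.41 at the MIR31HG side and from -2.39 to 0.32 at the CDKN2B side, and the nearest regions outside from -0.66 to 1.89 and from -1.84 to 1.05.

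Likeness to MIR31HG elsewhere was measured as the Euclidean distance of the median M of the 7 targets over 6952 windows of 104.1 kb. The nearest was chr4:11347009-11451109 at 0.85, against a median distance of 6.78. Its median M was -1.92 for H3K27Ac, -3.65 for Pol2Ser5, -3.59 for Pol2Ser2, -1.29 for RAD21 and 0.08 for CTCF. The next were chr2:227460685-227564785 at 1.72 and chr11:122006372-122110472 at 1.74, with H3K27Ac at -2.08 and -1.65.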

How the data were processed

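Reads were aligned with BWA to hg19, and MACS2 is named for every target but TotalRNAPol2, per the submitters' processing notes; their versions were not stated in any source at hand. Each deposited table lists regions called in either line, with the authors' normalized read density (a signal), M (log2 ratio, DKO over HCT116) and A (mean log2 density), and a p-value per region in the authors' deposited table, used only as a filter. Whole reads were recovered from M and A, 100% of them whole within 0.05, assuming 1 read had been added. Windows were taken as centred on the summit: 15 pairs of neighbouring regions with close summits differed by a median of 9.09% in reads. Median reads per region lay between 24 and 78 in DKO and between 23 and 94 in HCT116. Recovery was checked on simulated data.

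Members and lists were chosen with earlier results of these data known. Named regions are, per segment and target, those with the most reads, highest M or lowest M (at least 10 reads), and all within 2 kb of a 5′ end; the other regions upstream of MIR31HG and in its body, those at the p16INK4a start and the strong CTCF regions were chosen after their values were seen. Intervals are exact Clopper-Pearson 95% intervals of the DKO share of reads, shifted by the authors' scaling. For summed reads, M and its interval use that scaling at the unweighted mean A of the windows. Gene spans came with the choice of the stretch. Cell type markers and genes outside the stretch were not analysed here, since no hg19 annotation was used. Analyses used Python 3.11.15, pandas 2.3.3, numpy 2.4.6 and scipy 1.17.1. Alternatives were other fold thresholds, centrings, filters, flanks and 1 region per window.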

Additional observations from a re-analysis of the deposited data

How the results depend on the processing

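Across 101 results and 403 alternative values, 311 stayed within the limits set for them, 90 moved beyond them and 2 reversed from past 2-fold. No paired analysis was possible because each line has 1 library per target and the samples carry no replicate numbers. No result could be recomputed without a replicate for the same reason. Of 263 alternative values of M, 10 had the opposite sign, and in 8 of these the value was within 2-fold to begin with. The 2 reversals came with keeping only regions called in both lines: median M over MIR31HG went to 0.27 for RAD21 and 0.0078 for SMC1. With that filter lower regions numbered 0 for CTCF, 3 for RAD21, 2 for SMC1, 6 for H3K27Ac, 7 for Pol2Ser5, 17 for Pol2Ser2 and 8 for TotalRNAPol2. Higher ones numbered 1 for RAD21 and 0 for CTCF, SMC1 and Pol2Ser2. Median M from MIR31HG to MTAP was then -1.94 for Pol2Ser5 and -3.18 for TotalRNAPol2, and over MTAP -0.41 for Pol2Ser5 and -0.85 for Pol2Ser2. Over CDKN2A the median for Pol2Ser2 went from 0.78 to -0.28.

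At 4-fold, lower regions numbered 3 for CTCF, 7 for RAD21, 3 for SMC1, 25 for H3K27Ac, 47 for Pol2Ser2 and 46 for TotalRNAPol2, with 0 higher for RAD21, SMC1 and Pol2Ser2. At 1.5-fold, 33 RAD21 regions were lower, and higher ones numbered 17 for RAD21, 10 for SMC1, 3 for H3K27Ac, 1 for Pol2Ser5, 12 for Pol2Ser2 and 5 for TotalRNAPol2. Where the p of the authors' deposited table was under 1e-05, lower regions numbered 2 for CTCF, 13 for RAD21, 7 for SMC1, 69 for Pol2Ser5, 35 for Pol2Ser2 and 47 for TotalRNAPol2, and higher ones 1 for RAD21 and 0 for SMC1 and Pol2Ser2. At or above the median density, lower regions numbered 0 for CTCF, 11 for RAD21, 3 for SMC1, 26 for H3K27Ac and 56 for TotalRNAPol2, and higher ones 0 for CTCF and SMC1 and 1 for RAD21. With 1 region per counting window, lower regions numbered 28 for H3K27Ac, 57 for Pol2Ser5, 44 for Pol2Ser2 and 45 for TotalRNAPol2, and 1 Pol2Ser2 region was higher. Apart from the 1.5-fold threshold, each of these settings keeps fewer regions by its construction.

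Constant centring moved the overall median M by -0.24 (Pol2Ser2) and -0.29 (TotalRNAPol2). It left 1 higher Pol2Ser2 region. Median M from MIR31HG to MTAP became -3.97 for Pol2Ser2 and -3.44 for TotalRNAPol2, and over MTAP -1.19 for TotalRNAPol2. Summed reads gave -0.48 over MIR31HG for RAD21, -1.30 over MTAP for Pol2Ser2, and for TotalRNAPol2 -2.98 over MIR31HG, -0.87 over MTAP and 0.18 over CDKN2A. The region with the most reads over CDKN2B gave 0.18 for CTCF, -0.79 for RAD21 and 0.0276 for TotalRNAPol2, where M changed sign. Over MTAP it gave 0.13 for RAD21 and -0.18 for TotalRNAPol2, and over MIR31HG -1.75 for TotalRNAPol2.

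Centring on the median of all regions, which shifted M by -0.26 (CTCF), -0.14 (RAD21), -0.16 (SMC1), -0.17 (Pol2Ser2) and -0.27 (TotalRNAPol2), left 3 higher RAD21 regions. The region with the most reads gave, for CTCF, -0.36 over MIR31HG, -0.33 over MTAP and 0.13 over CDKN2B, and for TotalRNAPol2 -2.51, -0.95 and -0.66. Median M over MTAP was -1.27 for Pol2Ser2 and -1.09 for TotalRNAPol2, and from MIR31HG to MTAP -2.98 for TotalRNAPol2. Removing the chromosome 9 median left 3 higher RAD21 regions. The region with the most reads then gave, for CTCF, -0.45 over MIR31HG, -0.42 over MTAP, 0.12 over CDKN2A and 0.0447 over CDKN2B, and for TotalRNAPol2 -2.63, -1.07, 0.34 and -0.78. Median M over MTAP was -1.36 for Pol2Ser2 and -1.22 for TotalRNAPol2, and from MIR31HG to MTAP -3.10 for TotalRNAPol2. Depth limits the regions under 10 reads in DKO, where the size of a fold is imprecise.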
